A study of Prunus armeniaca and Prunus mume with 8 samples.

Results

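The 6 probes described here carry deposited descriptions that name an auxin-binding, auxin-induced or auxin-repressed protein, out of 10384 non-control probes on the array. They were found by searching those descriptions for the word auxin, for IAA and for the names ABP19 and ABP20. Descriptions come from the authors' deposited lists of probes that differed at least 2-fold on these same arrays, between the species or between cultivars. The lists describe 658 probes, of which 241 name a protein. The probes were therefore chosen by their differences between species and between most pairs of cultivars, which are given below as a description. Where the text counts how many of them limma called, the count supports nothing. All 6 probes stood on the species list of 1418 probes, and in the authors' deposited table their ratios on it ran from 3.06-fold for ABP3 to 8.24-fold for ABP20. The smallest ratio of an auxin-related probe on any list was 2.00-fold, for ABP19 between Manao and Zhenkui in the authors' deposited table. Nearest to a list it was not on stood the auxin-repressed protein, with 0.94 for Ruantiaohongmei minus Xiyeqing in the deposited log2 table, where the bound of 2-fold is 1. An auxin-related probe under 2-fold in every pair would carry no description and would not be counted.

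Fruit of Japanese apricot (Prunus mume, cultivars Ruantiaohongmei and Xiyeqing) and of apricot (Prunus armeniaca, cultivars Manao and Zhenkui) was measured on 8 one-colour arrays, 2 per cultivar and 4 per species. The labels call the RNA of every array mixed stages, out of stages 1 to 8 between week 3 and week 13 after full bloom, a span that runs from early growth through stone hardening to the last growth phase. They do not say which stages went onto which array, or whether the 2 arrays of a cultivar stand for different trees, so the p-values below cover only the spread among these samples, and that spread may be technical. Manao and Ruantiaohongmei lay in row 1 of the slide and Xiyeqing and Zhenkui in row 2, so within a species the cultivar and the slide row cannot be told apart.

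Auxin, chiefly indole-3-acetic acid, is a growth hormone that young seeds release and that promotes fruit set and the early division and expansion of flesh cells. The auxin-binding proteins ABP19 and ABP20 were named in peach, where they were purified for binding auxin, and their sequences belong to the germin-like proteins of the cell wall. Auxin-repressed proteins form a family with dormancy-associated proteins, and in strawberry the transcript falls when auxin is supplied. The name auxin-induced protein has been given to members of several unrelated families, and the description does not say which is meant.

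Levels are log2 signals with the 75th percentile of the array at 0, and the level of a probe is not set against that of another. Each of the 6 probes had 1 spot per array, and each was well above background and unsaturated on all 8 arrays, so none owed its place among the 9125 tested probes to a single group. The signal over local background was lowest for ABP20 on Ruantiaohongmei replicate 1, at 4.91 times, and highest for the auxin-repressed protein on Ruantiaohongmei replicate 2, at 7684 times. The arrays held 7806 to 8982 probes that were well above background, and the 2 arrays of a cultivar correlated at r = 0.969 to 0.992 across probes. Fruit probes were picked by the words expansin, polygalacturonase, ACC oxidase, allergen or thaumatin in the description. The word polygalacturonase can also take in proteins that inhibit this enzyme. Of 33 described fruit probes, 27 were well above background on all 8 arrays, as were 7468 of all 10384 probes. No other tissue was measured, so this does not test the fruit identity of the RNA. Of the 28 fruit probes tested, limma called 16 higher and 4 lower in P. mume (adjusted p under 0.05), with a median difference of 2.77. In either direction it called 36.6% of all tested probes and 149 of the 227 other tested probes that name a protein. The part of the fruit probes in the auxin-related differences was not tested. The only described seed probe, an oleosin (AY962832.1), stood at 1.06 on Ruantiaohongmei replicate 2 and between -6.40 and -5.14 on the other arrays. This probe was not well above background on all 8 arrays, so its low values may lie near the background. Each array is a mixture of cells, so fewer cells of a type and less RNA per cell cannot be told apart. The probes were made from sequences of several Prunus species, so the amount of a transcript and its match to the probe cannot be told apart between species either.

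Signals of the 4 auxin-binding proteins were lower in P. mume fruit than in P. armeniaca fruit. The probe for ABP20 (U81162.1, from peach, complete coding sequence) had the widest difference. Its levels were -2.93 and -0.60 in Ruantiaohongmei and -0.63 and -1.30 in Xiyeqing, against 0.48 and 1.54 in Manao and 1.52 and 3.58 in Zhenkui. All 4 P. mume arrays lay below all 4 P. armeniaca arrays, and the means were -1.36 ± 1.1 in P. mume and 1.78 ± 1.30 in P. armeniaca (SD, n = 4 each). The difference was -3.14 ± 0.73 (SE) on the log2 scale, or 8.84-fold lower in P. mume.

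ABP19 (GQ169610.1, from Prunus incisa, partial coding sequence) carries the name of the other auxin-binding germin-like protein known from peach. Its levels were 0.11 and 2.76 in Ruantiaohongmei and 2.97 and 2.43 in Xiyeqing, against 3.22 and 3.72 in Manao and 4.31 and 5.06 in Zhenkui. The species did not overlap, but the P. mume arrays other than Ruantiaohongmei replicate 1 came within 1 log2 unit of the lower Manao array. The means were 2.07 ± 1.33 in P. mume and 4.08 ± 0.79 in P. armeniaca (SD, n = 4 each), a difference of -2.01 ± 0.66 (SE), or 4.04-fold lower in P. mume. Without Ruantiaohongmei replicate 1 the difference was -1.36.

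ABP2 (EU310513.1) and ABP3 (EU310512.1) are putative auxin-binding proteins described from Japanese plum, Prunus salicina. ABP2 had levels of -0.48 and 2.80 in Ruantiaohongmei and 2.88 and 2.43 in Xiyeqing, against 3.07 and 3.45 in Manao and 4.17 and 4.84 in Zhenkui. The P. mume arrays again lay below the P. armeniaca arrays, Ruantiaohongmei replicate 1 far below them, and the difference of -1.97 ± 0.76 (SE), or 3.92-fold lower in P. mume, was -1.17 without that array. ABP3 had levels of -0.11 and 2.17 in Ruantiaohongmei and 2.14 and 1.47 in Xiyeqing, against 1.85 and 2.93 in Manao and 2.86 and 4.85 in Zhenkui. For ABP3 the species overlapped, since the higher array of each P. mume cultivar exceeded the lower Manao array. The means of ABP3 were 1.42 ± 1.07 in P. mume and 3.12 ± 1.26 in P. armeniaca (SD, n = 4 each), a difference of -1.71 ± 0.71 (SE), which was -1.13 without Zhenkui replicate 2.

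The auxin-induced protein (AY962829.1, from apricot, partial coding sequence) was also lower in P. mume fruit, with less spread within each species than the auxin-binding proteins. Its levels were -0.36 and 1.44 in Ruantiaohongmei and 1.56 and 0.86 in Xiyeqing, against 3.55 and 3.25 in Manao and 3.95 and 4.15 in Zhenkui. The highest P. mume array stood well below the lowest P. armeniaca array. The means were 0.87 ± 0.88 in P. mume and 3.73 ± 0.40 in P. armeniaca (SD, n = 4 each), a difference of -2.85 ± 0.43 (SE), or 7.21-fold lower in P. mume.

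The auxin-repressed protein (U93273.1, from apricot, complete coding sequence) ran the other way. Its levels were 8.61 and 8.61 in Ruantiaohongmei and 6.67 and 8.54 in Xiyeqing, against 6.48 and 6.79 in Manao and 5.94 and 5.72 in Zhenkui. P. mume arrays were the highest except Xiyeqing replicate 1, which fell between the 2 Manao arrays, so the species overlapped. The means were 8.11 ± 0.96 in P. mume and 6.23 ± 0.49 in P. armeniaca (SD, n = 4 each), a difference of 1.88 ± 0.47 (SE), or 3.67-fold higher in P. mume. Without Xiyeqing replicate 1 the difference was 2.35.

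**Figure D1:**
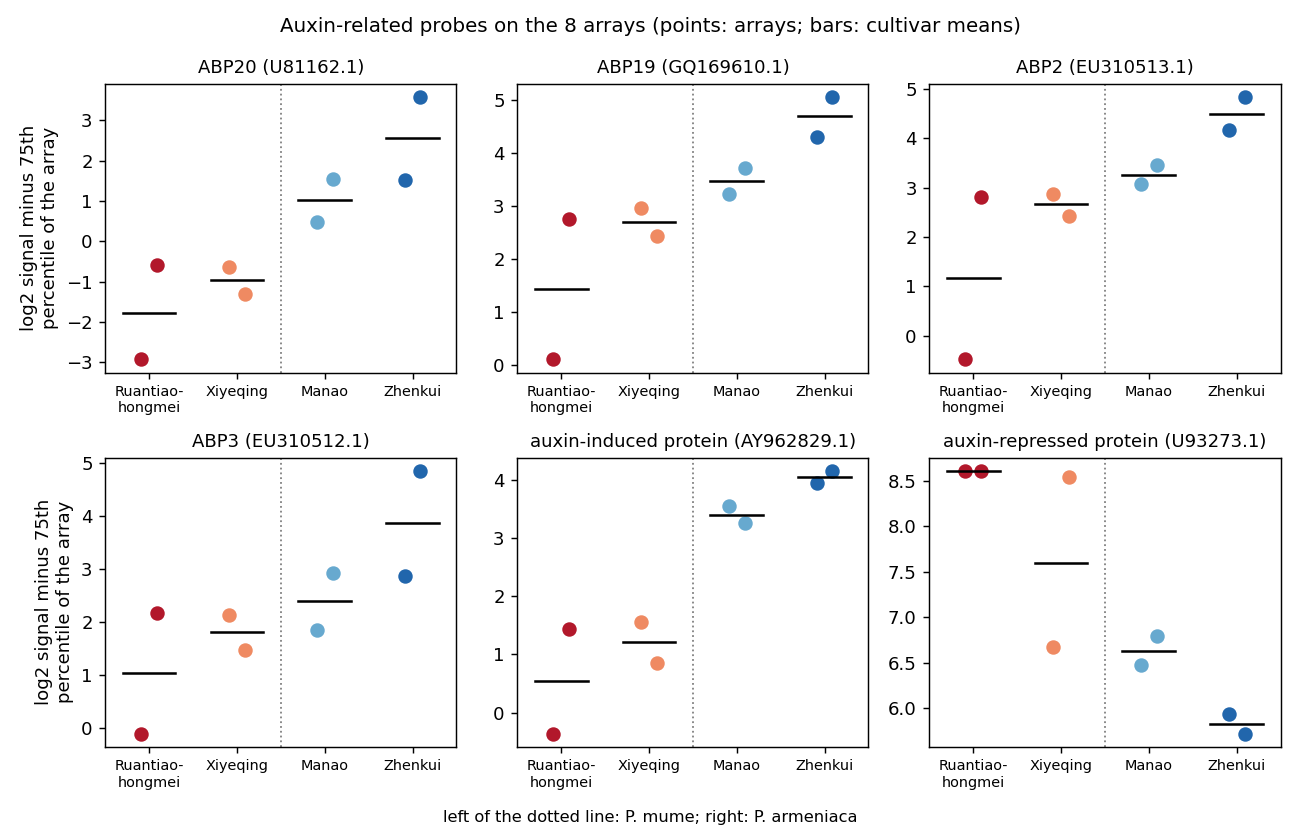
Level of each auxin-related probe on every array (points, log2 signal minus the 75th percentile of the array) with the mean of the 2 arrays of each cultivar (bars). The vertical scale differs between panels. The 4 auxin-binding proteins and the auxin-induced protein stood lowest on Ruantiaohongmei replicate 1 and highest on Zhenkui replicate 2, while the auxin-repressed protein was highest in Ruantiaohongmei and lowest in Zhenkui.

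In the species fit, limma's adjusted p passed the threshold of 0.05 for 4 of the 6 probes, ABP20, ABP19 and the auxin-induced protein lower and the auxin-repressed protein higher in P. mume. The same threshold was passed by 36.6% of all tested probes (15.1% higher and 21.5% lower in P. mume), and by 149 of the 227 other tested probes that name a protein (65.6%). Since the lists that describe a probe were drawn from this difference, nothing is read from the count of 4. The call of ABP19 (limma adjusted p = 0.0399) was lost with limma's trend and robust options (0.056), without either Xiyeqing or either Zhenkui array (0.0553 to 0.0834) and within either slide row (0.105 in row 1 and 0.0988 in row 2). In a plain unequal-variance test on the deposited log2 table, neither ABP19 (adjusted p = 0.138) nor the auxin-repressed protein (0.0529) passed. ABP20 did not pass within slide row 1 (limma adjusted p = 0.07). The median difference of the 6 probes was -1.99, beside 0.61 for the other protein-naming probes and -0.11 for all tested probes. Measured from that all-probe median, the differences were -3.04 for ABP20, -1.91 for ABP19, -1.87 for ABP2, -1.60 for ABP3, -2.74 for the auxin-induced protein and 1.98 for the auxin-repressed protein. Species without overlap, with P. mume lower, were found for 4 of the 6 probes and for 23.7% of the 9121 tested probes measured on every array.

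The same direction was seen in each slide row, where 1 cultivar of each species could be compared. Ruantiaohongmei minus Manao, in row 1, gave -2.77 ± 0.91 (SE) for ABP20, -2.86 ± 0.55 for the auxin-induced protein and 1.98 ± 0.54 for the auxin-repressed protein. Xiyeqing minus Zhenkui, in row 2, gave -3.51 ± 0.91 for ABP20, -2.84 ± 0.55 for the auxin-induced protein and 1.77 ± 0.54 for the auxin-repressed protein. For the other auxin-binding proteins the differences were -2.04 and -1.99 for ABP19, -2.10 and -1.84 for ABP2, and -1.36 and -2.05 for ABP3, each time row 1 and then row 2. In these cultivar pairs 2 of the 6 probes passed the threshold in row 1, beside 21.4% of all tested probes, and 3 of the 6 in row 2, beside 28.2%. Lists of both pairs hold all 6 probes, so nothing is read from these counts.

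Whether the species difference itself changed between the cultivar pairs was fitted as an interaction, (Ruantiaohongmei minus Manao) minus (Xiyeqing minus Zhenkui). No list was drawn from the interaction itself, but lists of both pairs hold all 6 probes, so it is given as a description. None of the 6 probes passed (limma, unadjusted p of 0.583 or more for each), beside 0.197% of all tested probes, and nothing is read from that count. The interaction of the auxin-induced protein was -0.02 (95% interval -1.86 to 1.83, limma adjusted p = 0.997) and that of the auxin-repressed protein 0.20 (-1.58 to 1.99, limma adjusted p = 0.971). For ABP20 it was 0.74 (95% interval -2.29 to 3.77, limma adjusted p = 0.928) and for ABP3 0.69 (-2.28 to 3.66, limma adjusted p = 0.933). The intervals of ABP19, from -2.65 to 2.55 around -0.05 (limma adjusted p = 0.996), and of ABP2, from -3.32 to 2.81 around -0.26 (limma adjusted p = 0.98), were as wide. The intervals of each auxin-binding protein and of the auxin-repressed protein include a change as large as the probe's own species difference. They do not show that the cultivar pairs act alike.

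**Figure D2:**
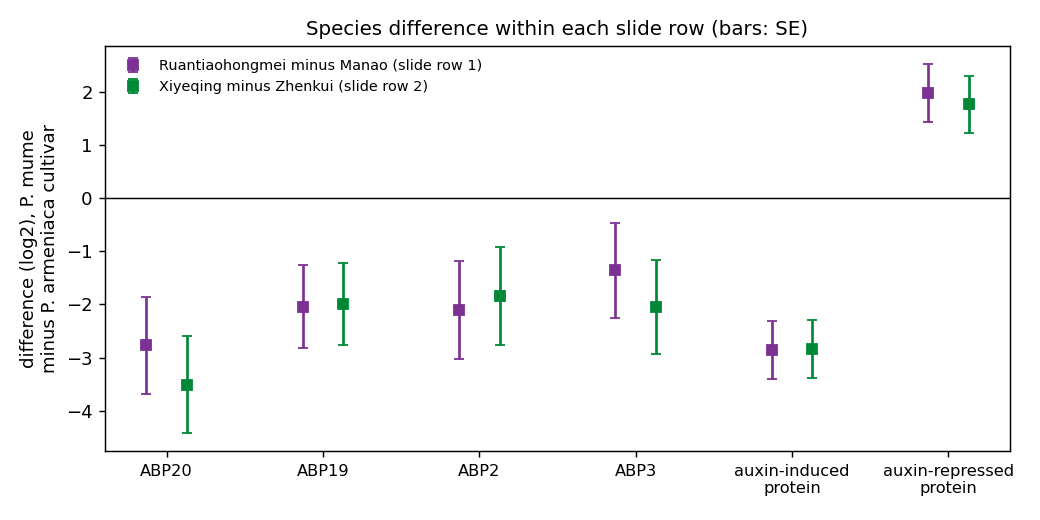
Difference of each auxin-related probe between a P. mume and a P. armeniaca cultivar (log2, squares) with its standard error (bars), in slide row 1 and in slide row 2. For every probe each square lies within the error bar of its partner, and row 1 minus row 2 ran from -0.26 for ABP2 to 0.74 for ABP20.

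The means of the cultivars fell in a single order for the 4 auxin-binding proteins and the auxin-induced protein, with Ruantiaohongmei lowest, then Xiyeqing, Manao and Zhenkui. The auxin-repressed protein had exactly the reverse order. The share of all tested probes with either order was not counted, and these probes followed or opposed each other across the arrays. Nothing is therefore read from the shared order. Its step between Ruantiaohongmei and Xiyeqing rested largely on single arrays, as the next paragraph describes. The neighbours Ruantiaohongmei and Xiyeqing overlapped for every probe except the auxin-repressed protein, that is 1 of 6 probes without overlap beside 30.3% of all probes. Xiyeqing and Manao did not overlap for 4 of 6 probes, beside 64.7% of all probes, with ABP3 and the auxin-repressed protein as the exceptions. Manao and Zhenkui did not overlap for 4 of 6 probes, beside 52.2% of all probes, and here ABP20 and ABP3 overlapped.

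Within P. mume, the list of Ruantiaohongmei and Xiyeqing holds ABP19 and ABP2 and leaves out the other 4 probes because their deposited differences were under 2-fold, so no test is given for either kind. Ruantiaohongmei minus Xiyeqing was -1.27 ± 0.78 (SE) for ABP19, -1.50 ± 0.92 for ABP2, -0.81 ± 0.91 for ABP20, -0.78 ± 0.89 for ABP3 and -0.67 ± 0.55 for the auxin-induced protein. For the auxin-repressed protein it was 1.01 ± 0.54. Of all tested probes, limma called 0.559% in this comparison. For all probes but the auxin-repressed protein the direction came from Ruantiaohongmei replicate 1. Without that array Ruantiaohongmei stood above Xiyeqing, by 0.36 for ABP20 and ABP3, 0.06 for ABP19, 0.14 for ABP2 and 0.23 for the auxin-induced protein. The difference of the auxin-repressed protein was 0.08 without Xiyeqing replicate 1.

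Within P. armeniaca, the list of Manao and Zhenkui holds every auxin-related probe but the auxin-induced protein, which differed by under 2-fold, and again no test is given. Manao minus Zhenkui was -1.54 ± 0.91 (SE) for ABP20, -1.22 ± 0.78 for ABP19, -1.24 ± 0.92 for ABP2 and -1.47 ± 0.89 for ABP3. It was -0.65 ± 0.55 for the auxin-induced protein and 0.81 ± 0.54 for the auxin-repressed protein. Limma called 0 probes of the whole array in this comparison (0% of 9125), and 1040 probes had an unadjusted p under 0.05. The difference of ABP20 was -2.57 without Zhenkui replicate 1 and -0.52 without Zhenkui replicate 2, and that of ABP3 was -2.47 and -0.48 under the same omissions.

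The 2 arrays of a cultivar differed more for the auxin-binding proteins than for most probes. Replicate 1 minus replicate 2 of Ruantiaohongmei was -3.28 for ABP2, -2.66 for ABP19, -2.34 for ABP20, -2.28 for ABP3 and -1.80 for the auxin-induced protein, where the median absolute gap over all tested probes was 0.34. Gaps as large were found in 0.395% of tested probes for ABP2 and in 2.30% for the auxin-induced protein. The auxin-repressed protein, in contrast, had the same level on both arrays. In Zhenkui the gaps were -2.06 for ABP20 and -1.99 for ABP3 but -0.75 for ABP19 and -0.67 for ABP2, so the auxin-binding proteins separated into pairs there. In Xiyeqing the auxin-repressed protein had a gap of -1.87, as large as in 2.49% of tested probes, while the auxin-binding proteins had gaps of 0.45 to 0.67 the other way.

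ABP20 and ABP3 moved together from array to array within each species, and their offset differed between the species. The level of ABP20 minus that of ABP3 was -2.82, -2.77, -2.77 and -2.77 on the P. mume arrays, against -1.37, -1.39, -1.34 and -1.27 on the P. armeniaca arrays. The offset depends on the brightness of each probe and carries no meaning by itself, but its change of -1.44 between the species shows that the probes did not change equally. Its standard deviation within species was 0.041, and none of the 9120 other probes followed ABP20 or ABP3 with a smaller one (medians 1.23 and 1.20). With normexp background correction the P. mume offsets spread over -2.58 to -1.98 and the standard deviation was 0.202, still the smallest of 9120, as it also was with quantile scaling (0.065). Duplicate spots of a single probe on an array had a median absolute difference of 0.164, which is not the same measure as a standard deviation of offsets. ABP19 and ABP2 formed the other pair, with a difference of 0.59, -0.04, 0.09 and 0.00 on the P. mume arrays against 0.14, 0.28, 0.15 and 0.23 on the P. armeniaca arrays. Its standard deviation within species was 0.211, again the smallest of 9120, and its mean was 0.16 ± 0.29 in P. mume and 0.20 ± 0.07 in P. armeniaca (SD, n = 4 each). These pairs were noticed after the values were seen and are given as a description. The probe sequences were not used here, so whether the probes of a pair bind the same transcripts was not tested.

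**Figure D3:**
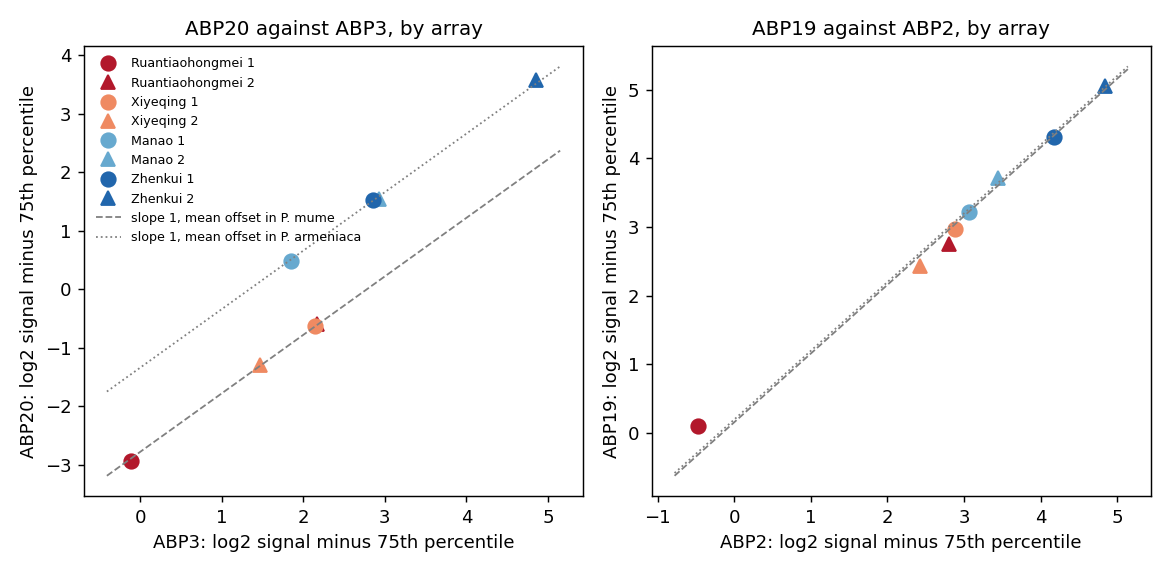
Level of ABP20 against ABP3 (left) and of ABP19 against ABP2 (right) on each of the 8 arrays, with lines of slope 1 drawn at the mean offset of P. mume (dashed) and of P. armeniaca (dotted). The ABP20 and ABP3 points lie on separate lines, at -2.78 in P. mume and -1.34 in P. armeniaca, while for ABP19 and ABP2 the lines nearly coincide and Ruantiaohongmei replicate 1 lies off them.

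Correlations over the 8 arrays, which share the slide, the 2 species and the scaling, are given as a description. Among the auxin-binding proteins r was 0.92 to 0.99. The auxin-induced protein followed them at r = 0.83 to 0.94 and the auxin-repressed protein ran against all 5 at r = -0.89 to -0.75. After the species mean was taken from each array, the auxin-repressed protein still ran against the others, at r = -0.62 to -0.50, and the auxin-induced protein followed ABP2 most closely, at r = 0.95.

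Among 226 other probes that name a protein, those most like ABP20 over the 8 arrays were phenylalanine ammonia-lyase (EF031063.1, r = 0.982), which opens phenylpropanoid synthesis, a DNA cytosine-5-methyltransferase (AY128652.1, r = 0.977) and a further phenylalanine ammonia-lyase, PAL1 (AF036948.1, r = 0.972). ABP3 shared the methyltransferase (r = 0.985) and PAL1 (r = 0.945), with the class I KNOX homeobox factor STM-like 2 (GQ281775.1, r = 0.97) between them. The phenylalanine ammonia-lyase EF031063.1 stood at 1.59, 2.23, 2.35 and 2.02 on the P. mume arrays, against 3.03, 3.82, 3.84 and 5.10 on the P. armeniaca arrays. It thus had its lowest level on Ruantiaohongmei replicate 1 and its highest on Zhenkui replicate 2, as ABP20 did.

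ABP19 and ABP2 had the same 3 nearest probes, with the methyltransferase again among them. Nearest to both was the chloroplast omega-3 desaturase (AF517831.2, r = 0.972 with ABP19 and 0.973 with ABP2), which makes trienoic fatty acids of plastid membranes, followed by the light-harvesting protein Lhcb-Pp2 (AF039598.1, r = 0.949 and 0.929) and the methyltransferase (r = 0.935 and 0.906). With the species mean removed, the nearest was the H subunit of magnesium chelatase (FJ842115.1, r = 0.965 and 0.971), the enzyme at the entry to chlorophyll synthesis. Between the species this probe differed the other way, by 2.29 (P. mume minus P. armeniaca). The KNOX factor KNOPE1 (DQ358050.1, r = 0.957 with both) came next, and was not well above background on Ruantiaohongmei replicate 1, where it read -6.92. The desaturase had levels of 0.16, 1.92, 2.59 and 1.86 in P. mume, against 2.73, 2.80, 3.14 and 3.31 in P. armeniaca, so that Ruantiaohongmei replicate 1 was low for it too. The 3 described green-tissue probes together summed to levels of 6.00 to 6.88 on the P. mume arrays and 6.90 to 8.02 on the P. armeniaca arrays. The sum was lowest on Ruantiaohongmei replicate 1, and it mostly follows the brightest of the 3, Lhcb-Pp2 (5.40 on that array). Of these 3, a photosystem I assembly protein (EF640703.1, 0.92 as P. mume minus P. armeniaca) and a photosystem I subunit X precursor (FC462331.1, -1.01) passed the threshold of the species fit, and Lhcb-Pp2 (-0.91) did not. On Ruantiaohongmei replicate 1 the subunit X precursor also had its lowest level, 3.70. The assembly protein did not, with 3.11 there, 2.90 on Ruantiaohongmei replicate 2 and 1.92 to 2.63 on the P. armeniaca arrays. The part of green tissue in the differences of the auxin-binding proteins was not tested.

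**Figure D4:**
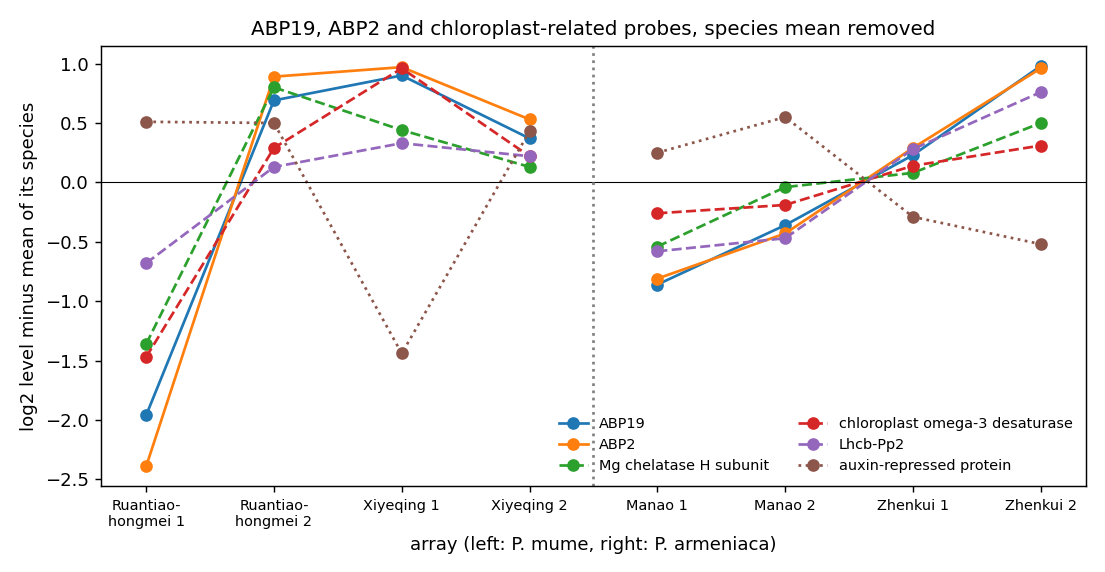
Levels of ABP19, ABP2, 3 chloroplast-related probes and the auxin-repressed protein on each array, on the log2 scale after the mean of the species was taken away (points, joined only to follow a probe). The 3 chloroplast-related probes are drawn because they were among the nearest to ABP19 and ABP2. The photosystem I probes are not drawn, and of these the assembly protein was not low on Ruantiaohongmei replicate 1 (level 3.11, beside 2.90 on replicate 2). ABP19 and ABP2 at -1.96 and -2.39 on Ruantiaohongmei replicate 1 stand with the magnesium chelatase H subunit at -1.36, the omega-3 desaturase at -1.47 and Lhcb-Pp2 at -0.68, while the auxin-repressed protein was lowest on Xiyeqing replicate 1, at -1.44, and stood at 0.51 on Ruantiaohongmei replicate 1.

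Nearest to the auxin-induced protein were the heat shock protein HSP60 (AF489695.1, r = 0.992), a chaperonin, defensin protein 1 (AY078426.1, r = 0.986) and malate dehydrogenase mdh1 (AF367442.1, r = 0.974). HSP60 stood at 1.59, 2.51, 2.58 and 2.05 in P. mume, against 3.74, 3.62, 4.25 and 4.42 in P. armeniaca. Nearest to the auxin-repressed protein were beta-galactosidase protein 1 (EF568777.1, r = 0.975), which removes galactose from cell wall polysaccharides, and a ubiquitin carrier protein (AY962825.1, r = 0.971). Beta-galactosidase stood at 5.41, 4.29, 2.46 and 5.20 in P. mume, against 1.56, 2.33, 0.35 and 0.71 in P. armeniaca, with Xiyeqing replicate 1 low among the P. mume arrays. With the species mean removed, a xyloglucan endotransglycosylase, XET1 (AF534870.1), was nearest at r = 0.94, and its level on Xiyeqing replicate 1 was 0.28 beside 5.52 on Xiyeqing replicate 2. All of these neighbours were themselves described because they stood on a 2-fold list.

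Other genes of the auxin pathway could not be counted. Of the described probes, 0 named an auxin response factor, a GH3, SAUR or Aux/IAA protein or an auxin carrier, 0 further probes named a germin or cupin, and 0 used the word dormancy (the dam genes, MADS-box genes of another family, are described by symbol alone). Of other growth hormones, 1 described probe named a gibberellin-regulated protein, the GAST-like EF640687.1. It stood at -1.36, -1.99, -4.97 and 0.34 on the P. mume arrays, against -1.95, -0.28, -2.58 and -3.75 on the P. armeniaca arrays, so its species overlapped widely, and its difference of 0.15 was not called (limma adjusted p = 0.931).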

How the data were processed

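The scanner files hold intensity values from which Agilent Feature Extraction had taken the background, in version 10.7.1.1 per the file headers and version 8.1 per the submitters' processing notes. A further deposited table holds log2 values of the same arrays, and how they were normalized was not given in the sources used here. Against the scanner signals on the log2 scale its columns gave r = 0.987 to 0.991, and their medians were 6.71 to 6.81. The authors' deposited lists hold a log2 difference, a p-value and a ratio (fold) for each probe.

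Here each array's 75th percentile was taken from the log2 processed signal, and limma 3.58.1 in R 4.3.3 tested the 9125 probes that both arrays of some cultivar showed well above background. Spots of a probe were averaged, and control spots and spots with outlier marks (up to 2 per array) were left out. The species fit had cultivar as a random block (consensus correlation 0.081), and the other comparisons were contrasts in a fit of the 4 cultivar means. Calls had a Benjamini-Hochberg adjusted p under 0.05. The number of arrays limits the precision. In simulated data with changes of 2 on the log2 scale, 92% were recovered between species, 76% for Ruantiaohongmei minus Xiyeqing, 74% for Manao minus Zhenkui and 40% for the interaction. The changed probes were drawn at random, 50 per size, with each probe's spread within cultivars and no other differences between cultivars. These shares do not describe the auxin-binding proteins, whose 2 arrays of a cultivar differed more than for most probes.

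All auxin-related probes were named, and for each the 3 most correlated protein-naming probes over the arrays, with and without the species mean, of which 1 is not reported here. These probes, lists and tests were chosen with earlier results of these data known. Alternatives were quantile scaling, normexp background correction, the deposited table, other filters, variance priors and blocks, single slide rows, a plain unequal-variance test and leaving out each array. Normexp used the median signal of each spot, since the files used here hold no mean signal, where the plan had named the mean. Replicate numbers were checked for pairing, and the correlations of deviations between same-numbered arrays ran from -0.176 to 0.393. The plan was to test the interaction, and the 2 comparisons within a species for probes outside the list of that pair. Such probes were kept off the list by a small difference, and the interaction is built from pairs that had lists. Both are therefore only described. Probe sequences were not used here.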

Additional observations from a re-analysis of the deposited data

Results flagged for a closer look

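For each of the 6 probes and each species, the gap between the most distant of the 4 arrays and its nearest neighbour was divided by the range of the 4 and set against Dixon's 95% critical value. Chance passes about 1 in 20 such groups if the 4 arrays are independent draws from a single normal distribution, and 12 groups were examined. Here the 4 arrays come from different cultivars, and the probes follow each other across arrays. The share of all tested probes that pass was not counted, so nothing is read from the number that passed. ABP2 (EU310513.1) in P. mume passed with a ratio of 0.867, because Ruantiaohongmei replicate 1 stood at -0.48 while the other P. mume arrays lay between 2.43 and 2.88. The auxin-repressed protein (U93273.1) in P. mume passed with a ratio of 0.96, because Xiyeqing replicate 1 stood at 6.67 while the others lay between 8.54 and 8.61. In P. armeniaca no auxin-related probe passed.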

How the results depend on the processing

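The species differences kept their direction for all 6 auxin-related probes under every setting run, and the order of the 4 cultivar means held for 6 of 6 probes with quantile scaling, normexp and the deposited log2 table. The count of these probes called between species was 2 with the plain unequal-variance test and 2 within slide row 1, where 1953 probes were called in all, 3 with trend and robust options, and 3 to 6 when an array was left out (all probes 2537 to 4178). For Ruantiaohongmei minus Xiyeqing the probes called numbered 27 with normexp, 9 among probes well above background on all 8 arrays, and 22 to 48 without 1 array. For the interaction they numbered 11, 4 and 10 to 23 under the same settings, and for Manao minus Zhenkui 0 throughout. Normexp brought the all-probe median to 0.047 and the species calls to 2525. Without 1 array, Ruantiaohongmei minus Xiyeqing ran from -1.97 to 0.36 for ABP20, -2.60 to 0.06 for ABP19, -3.14 to 0.14 for ABP2, -1.92 to 0.36 for ABP3 and -1.57 to 0.23 for the auxin-induced protein. The interaction ran from -0.43 to 1.91, -1.38 to 1.28, -1.90 to 1.39, -0.45 to 1.83 and -0.92 to 0.89 for the same probes in that order, and from -0.73 to 1.14 for the auxin-repressed protein. It also turned for the auxin-repressed protein with quantile scaling (-0.15) and the deposited table (-0.20), and for the auxin-induced protein with normexp (0.02); the cause was not tested. In alternatives chosen after seeing the data, ABP20 minus ABP3 differed between species by -1.52 with quantile scaling, -1.09 with normexp, where the P. mume offsets spread over -2.58 to -1.98, and -1.45 to -1.41 without 1 array. Whether the replicate numbers pair arrays of different cultivars was not settled. With these numbers as a block 4 auxin-related probes were called, 3094 probes between species, 48 for Ruantiaohongmei minus Xiyeqing and 14 for the interaction. Of the 36 names of similar probes, which stand for 15 distinct probes, 29 were given again with the deposited table. With 2 arrays per cultivar, differences near 1 log2 unit within a species were mostly beyond reach (26% and 16% recovered in simulated data).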
